A study of Mus musculus with 50 samples.

Results

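Dendritic cells are rare blood-derived sentinels that take up antigen and show it to T cells, and their subsets are told apart by small sets of genes. The genes described here are 10 such subset genes, 6 of conventional dendritic cells (Batf3, Zbtb46, Xcr1, Clec9a, Cadm1 and Cd209a) and 4 of plasmacytoid dendritic cells (Siglech, Tcf4, Spib and Ccr9). They are a named list of known subset genes, set with earlier results of these data known, and all 10 were found among the 33924 genes of both count tables. Each was followed through 50 bulk RNA-seq libraries in 16 groups of mouse bone-marrow progenitors, 14 with leukemia mutations and 2 WT.

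In the first table (30 libraries), the cells are LSK and GMP, sorted from WT animals (4 weeks) or Flt3 mutants (2, 4, 6 and 8 weeks), with 3 libraries for each cell type and time. LSK cells are the lineage-negative, Sca1+, Kit+ fraction that holds the blood stem cells, and GMPs are granulocyte-macrophage progenitors. The second table (20 libraries) holds the same cells with a second mutation, Npm1 Flt3 (4 libraries per cell type) or Dnmt3a Flt3 (3 per cell type). It also holds Lin- (lineage-negative) progenitors from Npm1 Flt3 animals given tamoxifen (TAM) or vehicle for 7 days (3 each). Per the labels, a Cre, Dre or Flp recombinase switched the mutations on, animals were taken at the stated time or once they had symptoms, and tamoxifen removes the mutant Flt3 allele. The labels do not say which promoter drives a recombinase, from which event the weeks are counted, or at what time the mice with a second mutation were taken. No group of the second table is WT or carries Flt3 alone. WT was sampled at 4 weeks only, and the WT and Flt3 mice have different code series, so genotype, code series and, away from 4 weeks, time cannot be told apart.

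Conventional dendritic cells arise from progenitors that carry the receptor Flt3. Their XCR1+ branch forms under the transcription factors Irf8, Id2 and Batf3, and presents material from dead cells to cytotoxic T cells. Plasmacytoid dendritic cells need the E protein Tcf4, the partner that Id2 blocks, and are known for making type I interferon when they sense viral nucleic acids. In healthy marrow neither mature cell belongs to the LSK or the GMP gate. In sorted bulk RNA, a change in the number of cells of a type cannot be told apart from a change in RNA per cell.

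Library totals ran from 306571 to 8249135 counts in the first table and from 15053592 to 128057407 in the second. The exception was Flt3 GMP replicate 2 at 8 weeks, which held 1942 counts over all genes. It entered the fits but no group mean and no figure, so that 2 usable GMP libraries remain at that time. The sort was visible in the counts: a list of 6 GMP genes summed to 14953 to 61750 CPM (counts per 1e+06 counts of the library) in GMP libraries and to 1611 to 5350 CPM in LSK libraries. For 2 Dnmt3a Flt3 libraries (LSK replicate 1 and GMP replicate 2) the title and the sample code name different cell types, so both were left out of the tests, which then rest on 2 Dnmt3a Flt3 libraries per cell type. Their GMP genes went with the titles: the 3 libraries titled LSK summed to 3269 to 4037 CPM and the 3 titled GMP to 48907 to 61750 CPM. Results with both put back under their titles are given where a call changes. Levels below are CPM of each library's total, and differences are log2 fold changes ± standard error with p-values from edgeR's quasi-likelihood test, Benjamini-Hochberg adjusted over all genes of the fit and called under 0.05.

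The promoters of 4 members are shown because 3 of them (Cd209a, Xcr1 and Clec9a) moved together in the Flt3 progenitors, while the fourth, Siglech, differed between LSK and GMP cells. Each is the 250 bases before the RefSeq start on GRCm38.p6, the patch level of mm10, written 5′ to 3′ on the gene's strand, with motif matches in capitals. Cd209a lies at chr8:3748985-3749234 (minus strand), Xcr1 at chr9:123862030-123862279 (minus), Clec9a at chr6:129408612-129408861 (plus) and Siglech at chr7:55767934-55768183 (plus). The Clec9a window also lies inside a retained-intron transcript of its neighbour Clec1b.
Cd209a: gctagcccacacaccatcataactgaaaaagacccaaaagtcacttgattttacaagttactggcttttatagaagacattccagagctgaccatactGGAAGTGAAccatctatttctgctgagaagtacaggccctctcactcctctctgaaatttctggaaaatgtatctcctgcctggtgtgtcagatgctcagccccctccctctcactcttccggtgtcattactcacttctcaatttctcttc
Xcr1: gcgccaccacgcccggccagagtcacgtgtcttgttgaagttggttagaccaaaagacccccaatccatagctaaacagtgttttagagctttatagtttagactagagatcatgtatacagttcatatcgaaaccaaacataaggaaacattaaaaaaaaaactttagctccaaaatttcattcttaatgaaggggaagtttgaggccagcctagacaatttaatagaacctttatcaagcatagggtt
Clec9a: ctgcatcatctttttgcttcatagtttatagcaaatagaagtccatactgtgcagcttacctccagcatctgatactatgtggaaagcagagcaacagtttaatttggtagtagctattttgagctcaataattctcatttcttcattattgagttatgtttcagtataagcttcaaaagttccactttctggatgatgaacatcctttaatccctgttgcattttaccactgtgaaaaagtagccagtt
Siglech: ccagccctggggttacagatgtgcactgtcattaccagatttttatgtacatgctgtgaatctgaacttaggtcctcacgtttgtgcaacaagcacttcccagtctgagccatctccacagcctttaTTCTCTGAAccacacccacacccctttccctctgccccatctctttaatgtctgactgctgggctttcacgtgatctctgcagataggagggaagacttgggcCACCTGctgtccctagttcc

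The motifs searched on both strands were TGANTCA (AP-1 or BATF), GAAANNGAA (tandem IRF), GGAANNGAA (Ets-IRF), CAGGTG (the E-box read by E proteins) and TTCNNNGAA (STAT). The Cd209a window holds an Ets-IRF match, 152 bases before the start. The Siglech window holds an E-box match 20 bases before the start, on the opposite strand, and a STAT match 123 bases before it. The windows of Xcr1, Clec9a and Spib hold none of the 5. Among the other members in the table, Batf3 has a STAT match, Zbtb46 an AP-1 match and an E-box, and Ccr9 an E-box. The windows of Batf3, Zbtb46 and Ccr9 lie inside the gene spans given below, so they may not be the genes' main promoters. Over all 32851 promoters of this length, 6.99% hold the Ets-IRF letters, 17.2% the E-box, 7.02% the STAT letters, 6.75% the AP-1 letters and 7.13% the tandem IRF letters. A match is a description of these letters only. RefSeq promoters were matched for 8 of the 10 members, all except Cadm1 and Tcf4.

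In GMPs at 2 weeks, every conventional member was far above WT. Batf3, the transcription factor that the XCR1+ branch requires, stood at 86.2, 191 and 131 CPM in the 3 Flt3 libraries and at 0, 1.49 and 1.34 CPM in the 3 WT libraries. Xcr1, the receptor for the chemokine Xcl1, stood at 179, 245 and 216 CPM against 0, 0 and 0.671 CPM. The lowest Flt3 library was above the highest WT library for both genes, and the differences were 6.99 ± 0.50 (adjusted p = 1.4e-12) for Batf3 and 9.63 ± 0.83 (adjusted p = 4.4e-07) for Xcr1.

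Clec9a, a lectin that senses dead cells, stood at 40.2, 41.6 and 44.4 CPM against 0, 0.995 and 0 CPM in WT GMPs. Cadm1, an adhesion molecule of the XCR1+ branch, stood at 111, 231 and 117 CPM against 0, 0 and 4.02 CPM. Both were separated from WT in every library, by 6.52 ± 0.66 (adjusted p = 3.9e-11) and 6.89 ± 0.66 (adjusted p = 4.9e-07). Zbtb46, a transcription factor that marks conventional dendritic cells and their precursors, stood at 49.4, 96.1 and 60.2 CPM in Flt3 GMPs. Cd209a, a lectin carried by a subset of conventional dendritic and monocyte-derived cells, stood at 62.1, 54.5 and 60.6 CPM.

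Neither Zbtb46 nor Cd209a had a count in any WT GMP library, where 3 counts over the group would be 0.664 CPM. Set against that floor, Zbtb46 was at least 91.2-fold higher and Cd209a at least 91.0-fold higher (adjusted p = 1.7e-05 and 2.8e-14). Of the 10 members, 7 passed the low-count filter in GMPs and 6 of these were called higher, where 16.2% of all 9122 genes tested were. The filter ran over all 15 GMP libraries, so a member could pass through the 2-week group in which it is high, and the count and median describe the members that passed and support nothing further. The median over the 7 was 6.99 (6.52 with the genes at 0 in WT set at their bound), against 0.03 over all genes tested.

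At 4, 6 and 8 weeks the conventional members were lower than at 2 weeks and most stayed above WT. Batf3 lay at 14.4 to 52.5 CPM in the 8 usable later GMP libraries, above every WT library, with differences of 4.54 ± 0.60, 3.78 ± 0.62 and 4.31 ± 0.64 at 4, 6 and 8 weeks. Xcr1 was called higher at all 3 times (5.21 ± 1.35, 5.01 ± 1.30 and 6.05 ± 1.20), with libraries from 2.22 to 39.0 CPM. Clec9a was called too, by 2.90 ± 0.98 (adjusted p = 0.0372), 2.57 ± 0.94 (adjusted p = 0.0484) and 4.31 ± 0.82. Zbtb46 was at least 17.3-, 16.8- and 14.3-fold above the WT floor.

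Cd209a was at least 12.8-fold higher at 4 weeks and 7.67-fold higher at 6 weeks. At 8 weeks it had 2 counts in all, at which no fold is given. Cadm1 stood at 3.34 to 14.2 CPM and was called at none of the 3 times (adjusted p = 0.1398, 0.112 and 0.0905). WT replicate 3 held 4.02 CPM, and without that library the Cadm1 differences were 6.56, 6.46 and 6.78 and all were called. Cadm1 was called at all 3 times with no low-count filter too (adjusted p = 0.00573, 0.00305 and 0.00123). In all, 6, 6 and 5 of the 7 members tested were called higher, where 7.18%, 8.93% and 8.43% of genes were. These comparisons share the WT libraries.

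The later GMP calls rest on few counts. Clec9a had 10, 14 and 29 counts at 4, 6 and 8 weeks and 2 in WT, against 462 at 2 weeks. With only the compared groups in the fit and its filter, Clec9a, Zbtb46 and Cd209a were not tested at any of the 3 times, and 2 (Batf3, Tcf4), 3 (these and Xcr1) and 1 (Tcf4) members were called. Leaving out any of 5 libraries at 4 weeks (Flt3 replicates 2 and 3, WT replicates 1, 2 and 3) ended the Xcr1 call (adjusted p from 0.0629 to 0.0890), as did leaving out any WT library at 6 weeks (0.0605 to 0.0883). Clec9a was lost without Flt3 replicate 1 or 2 or WT replicate 1 or 3 at 4 weeks, and without Flt3 replicate 2 or 3 or WT replicate 1 or 3 at 6 weeks (adjusted p from 0.0713 to 0.252). It was also lost there when the near-empty library was left out (adjusted p = 0.0543 and 0.0668), and with DESeq2 (adjusted p = 0.178 and 0.238). At 8 weeks, without Flt3 replicate 3, Xcr1 (2.75, adjusted p = 0.327), Clec9a (2.53, adjusted p = 0.268) and Zbtb46 (adjusted p = 0.279) were not called, and Zbtb46 was also lost without WT replicate 2 or 3. The Batf3 calls held under each of these omissions.

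Within the Flt3 genotype, 2 weeks stood apart from the mean of 4, 6 and 8 weeks. All 6 conventional members were called higher at 2 weeks in GMPs, by 2.78 ± 0.25 (Batf3) to 4.51 ± 0.38 (Cadm1), where 15.8% of genes were, and 1 member, Tcf4, was lower, where 8.63% were. For each of the 6, the lowest library at 2 weeks was above the highest later library. No share over all genes stands beside this or any other non-overlap, above or below, so it describes the libraries only. Cd209a, for example, fell from 54.5 to 62.1 CPM at 2 weeks to 0 to 14.0 CPM in later libraries (4.44 ± 0.34, adjusted p = 3.4e-15).

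The GMP libraries at 2 weeks also differed from the rest in other cell markers. A list of 5 basophil and mast cell genes summed to 56749 to 70242 CPM there, against 873 to 1267 CPM in WT GMPs and 266 to 954 CPM in later Flt3 GMPs. The 18 further conventional surface and effector genes summed to 24759 to 39233 CPM, against 1767 to 2007 CPM in WT. The 7 T and NK genes summed to 4.02 to 6.55 CPM, against 0 to 1.34 CPM in WT, with Cd3e and Cd8b1 at 0. The part of these cells in the results was not tested.

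**Figure D1:**
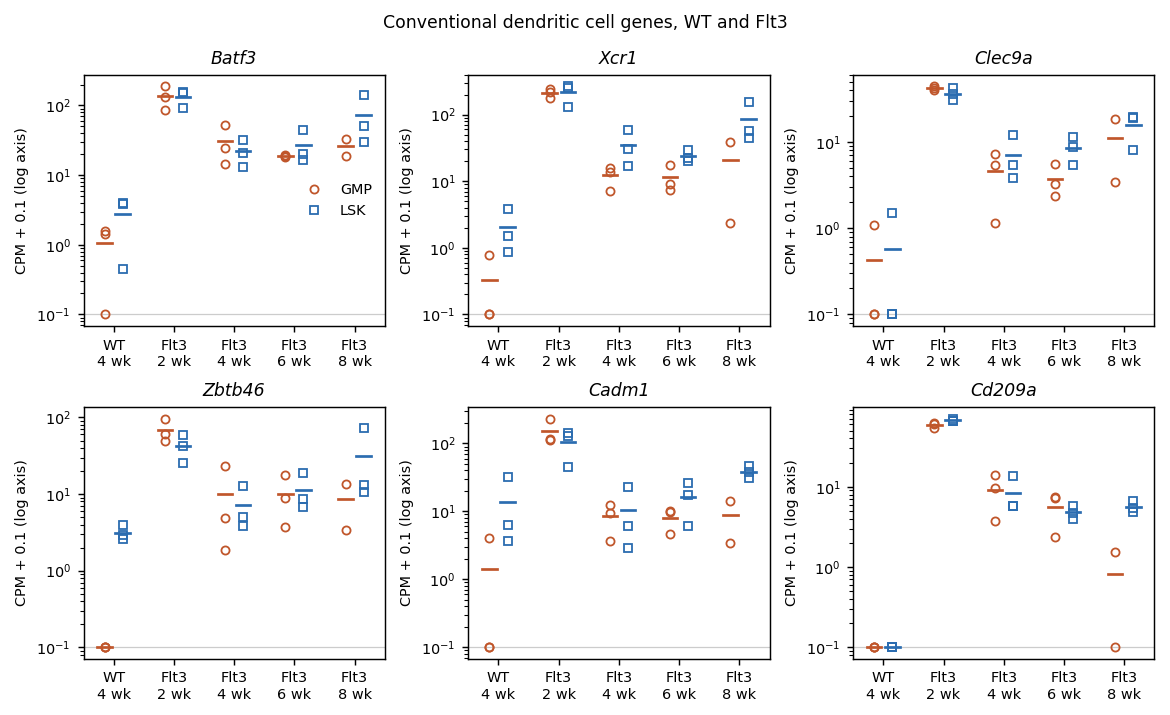
Each panel plots the CPM (log axis, 0.1 added) of 1 conventional gene in WT libraries at 4 weeks and Flt3 libraries at 2, 4, 6 and 8 weeks, with circles for GMP, squares for LSK and bars for group means. In GMP the 3 points at 2 weeks are above all other GMP points for each gene; in LSK this holds for Clec9a and Cd209a, while Flt3 replicate 3 at 8 weeks reaches into the range of 2 weeks for Batf3, Xcr1, Zbtb46 and Cadm1.

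The conventional members were raised in LSK cells at 2 weeks as well. Batf3 stood at 90.7, 157.5 and 150.0 CPM in Flt3 LSK cells and at 0.351, 3.71 and 3.84 CPM in WT. Xcr1 stood at 131, 269.5 and 252 CPM against 1.40, 3.71 and 0.768 CPM. Clec9a stood at 30.2, 35.4 and 42.1 CPM, while a single WT library had any count (1.40 CPM). No Flt3 library overlapped WT for these genes, and the differences were 6.16 ± 0.79, 7.49 ± 0.75 and 6.02 ± 0.70.

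Cd209a was at 70.2, 65.8 and 65.9 CPM in Flt3 LSK cells and had no count in WT, so that Flt3 was at least 139.6-fold higher. Zbtb46 was at 25.4, 59.2 and 42.1 CPM against 2.81, 2.47 and 3.84 CPM (4.05 ± 0.68). Cadm1 was already present in WT LSK cells, at 3.51, 6.18 and 31.5 CPM, and rose to 44.8, 143 and 130 CPM (3.18 ± 0.84, adjusted p = 0.0224). The groups did not overlap for any of the 3, but the Cadm1 call was lost without Flt3 replicate 2 or 3 or WT replicate 1 or 2 (adjusted p from 0.0637 to 0.0696). It was also lost with only the compared groups in the edgeR fit (3.18, adjusted p = 0.102).

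With Siglech, 7 of the 8 members tested in LSK cells at 2 weeks were called higher, where 11.1% of 9892 genes were. The median over the 8 was 6.09, against -0.04 over all genes. The filter ran over all 15 LSK libraries, so the limit given for the GMP count and median holds here and at later times. At 4, 6 and 8 weeks, 4, 4 and 5 members were called higher, where 4.54%, 4.41% and 4.10% of genes were. Batf3 (3.27 ± 0.87, 3.54 ± 0.86 and 4.73 ± 0.85), Xcr1 (4.56 ± 0.83, 3.97 ± 0.88 and 5.60 ± 0.82), Clec9a (3.37 ± 0.77, 3.58 ± 0.76 and 4.34 ± 0.76) and Cd209a (at least 16.0-, 9.72- and 11.0-fold) were called at each time.

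Zbtb46 was not called at 6 weeks (1.79 ± 0.72, adjusted p = 0.153), but was with no low-count filter (adjusted p = 0.0103) or only the compared groups in the fit (adjusted p = 0.0344). It was called at 8 weeks (2.95 ± 0.74, adjusted p = 0.0136), where its libraries stood at 12.9, 10.7 and 71.8 CPM. That call was lost without WT replicate 1 or 3 (adjusted p = 0.0731 and 0.0507). The Batf3 call was lost without any of 5 libraries at 4 weeks (Flt3 replicates 1 and 3 and each WT library, adjusted p from 0.0670 to 0.1403) and any of 4 at 6 weeks (Flt3 replicate 2 and each WT library, 0.0525 to 0.104). At 6 weeks Xcr1 was lost as well without WT replicate 1 or 3 (0.0793 and 0.0847). The library with 71.8 CPM of Zbtb46 was the shallowest usable one (306571 counts), and no LSK call changed without it.

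Cadm1 in LSK cells was not called at 4, 6 or 8 weeks (-0.49 ± 0.95, 0.06 ± 0.93 and 1.34 ± 0.89). Its sign at 4 weeks turned on WT replicate 3, without which the difference was 1.30 (adjusted p = 0.579). Against the mean of the later times, 7 of the 8 members tested were higher at 2 weeks in LSK cells, where 11.0% of genes were. The 6 conventional ones differed by 2.08 ± 0.45 (Zbtb46) to 3.80 ± 0.29 (Cd209a).

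Of the plasmacytoid members, Siglech was the one called against WT at 2 weeks, in LSK cells. Siglech, a sialic acid-binding receptor of mouse plasmacytoid cells, was at 52.0, 52.0 and 48.5 CPM in Flt3 LSK cells at 2 weeks and at 0.351, 0 and 1.54 CPM in WT LSK cells (6.20 ± 0.80, adjusted p = 6.4e-06). In Flt3 GMPs at 2 weeks it was at 0, 1.60 and 0.849 CPM, within the range of WT GMPs (0 to 0.985 CPM) for 2 of its 3 libraries. Later Flt3 LSK libraries held 0 to 9.79 CPM, all below those at 2 weeks (3.92 ± 0.47, adjusted p = 3.2e-06 for 2 weeks against later).

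Siglech in LSK cells was not called against WT at 4 weeks (2.56 ± 0.91, adjusted p = 0.0798), 6 weeks (2.56 ± 0.93, adjusted p = 0.0967) or 8 weeks (1.73 ± 1.10, adjusted p = 0.417). Leaving out Flt3 replicate 2 at 4 weeks, which had no Siglech count, gave 2.97 (adjusted p = 0.0186). With no low-count filter Siglech was called at 4 weeks (adjusted p = 0.0079) and 6 weeks (adjusted p = 0.0113). The LSK values at 6 weeks, 3.50, 2.42 and 9.40 CPM, were all above the highest WT LSK value of 1.54 CPM, so the groups did not overlap there. In GMPs Siglech did not pass the low-count filter, and its highest later value was 5.68 CPM, at 8 weeks.

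Spib, an Ets factor shared by plasmacytoid cells and B cells, followed Siglech at lower counts. It was at 13.3, 5.78 and 4.57 CPM in Flt3 LSK cells at 2 weeks (24 counts in all) and at 0, 0 and 1.15 CPM in WT LSK cells. Flt3 GMPs at 2 weeks held 0.575, 0 and 0.727 CPM. Spib did not pass the low-count filter in the first table, so these are values without a test; in LSK cells at 2 weeks they did not overlap with WT or with later libraries (0 to 1.61 CPM).

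Ccr9, a chemokine receptor that guides cells to the small intestine, was present at 2 weeks in both cell types. It was at 6.05, 5.06 and 9.15 CPM in LSK cells and at 2.87, 6.41 and 4.61 CPM in GMPs. WT LSK libraries held 0.351, 1.24 and 0 CPM, and WT GMPs had no count, so that Ccr9 in GMPs at 2 weeks was at least 6.66-fold higher. Ccr9 did not pass the filter either. At 4, 6 and 8 weeks its highest value was 3.26 CPM in LSK cells and 1.05 CPM in GMPs, so at 2 weeks every library was above all later libraries of its cell type.

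Tcf4 had counts in every WT library, and in GMPs it was lower at 2 weeks than later. WT LSK libraries held 123, 85.3 and 98.3 CPM, and WT GMPs held 25.6, 26.9 and 36.2 CPM. In Flt3 GMPs it was at 40.8, 27.2 and 42.9 CPM at 2 weeks, overlapping WT (0.52 ± 0.25, adjusted p = 0.117). It then stood at 64.6 to 71.5 CPM at 4 weeks, 72.4 to 103 CPM at 6 weeks, and 73.4 and 132 CPM at 8 weeks.

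All later GMP libraries were above WT, and Tcf4 was called at each time (1.02 ± 0.26, 1.28 ± 0.25 and 1.58 ± 0.26, adjusted p = 0.0047, 0.000134 and 2.0e-05). Within Flt3 GMPs, 2 weeks was lower than later by 0.77 on the log2 scale (-0.77 ± 0.20, adjusted p = 0.00337), and the libraries did not overlap. In LSK cells Tcf4 was called at no time (adjusted p from 0.528 to 0.830) and ran from 58.0 to 189 CPM. DESeq2 with the near-empty library did not call Tcf4 in GMPs at 4 weeks (1.14, adjusted p = 0.102) or between 2 weeks and later (-0.78, adjusted p = 0.148).

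Plasma cell genes were high in the same LSK libraries at 2 weeks as Siglech. A list of 4 plasma cell genes summed to 6092, 14458 and 16206 CPM (lowest, median and highest), against 313 to 522 CPM in WT LSK cells and 417 to 537 CPM in later Flt3 LSK cells. The 8 B lineage genes did not show this, at 91.8 to 129 CPM against 94.4 to 129.8 CPM in WT, with Ms4a1 and Pax5 at 0 in LSK cells at 2 weeks. T and NK genes summed to 41.9 to 64.9 CPM against 8.42 to 38.3 CPM. The part of these cells in the Siglech and Spib values was not tested.

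**Figure D2:**
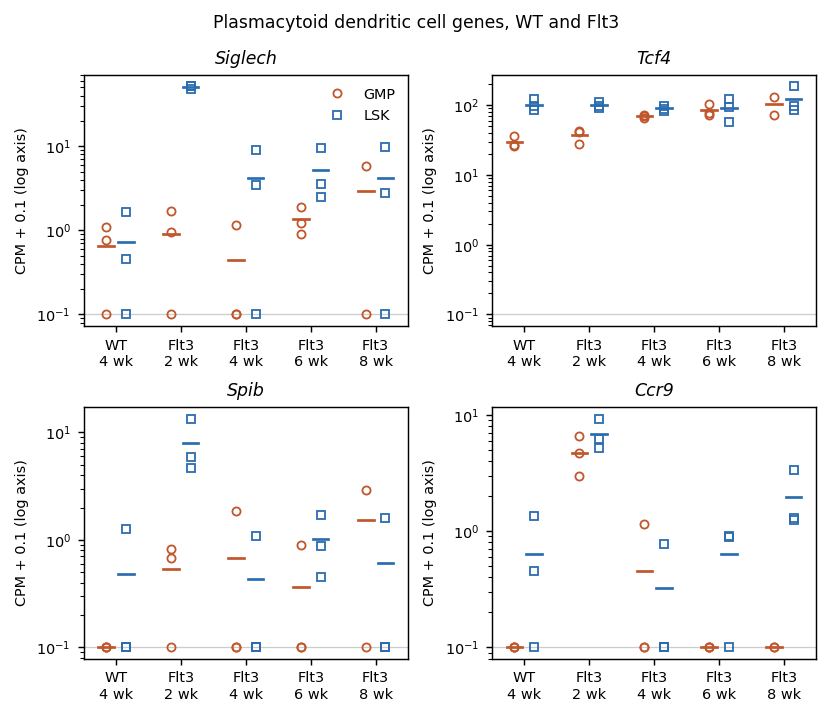
Each panel plots the CPM (log axis, 0.1 added) of 1 plasmacytoid gene in WT and Flt3 libraries by week, with circles for GMP, squares for LSK and bars for group means. Siglech reaches 48.5 to 52.0 CPM in LSK cells at 2 weeks, at most 1.60 CPM in GMPs at 2 weeks and at most 5.68 CPM in any GMP library, while Tcf4 in GMPs is at 25.6 to 36.2 CPM in WT and at 64.6 CPM or more from 4 weeks on.

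Of 17 further dendritic transcription factors, 16 were tested, and 9 rose and none fell in GMPs at 2 weeks. In LSK cells at 2 weeks, 8 rose and 1 fell. Over all genes, 1481 of 9122 rose and 999 fell in GMPs at 2 weeks, and 1095 of 9892 rose and 790 fell in LSK cells. These counts stand beside each list at 2 weeks below. Irf8, which instructs dendritic and monocytic fate, rose by 2.84 ± 0.28 in GMPs and 4.13 ± 0.34 in LSK cells. The medians of the 16 were 1.00 and 0.96. Among 5 E proteins and Id inhibitors, Id2, which binds E proteins such as Tcf4, rose by 6.34 ± 0.57 in GMPs and 4.59 ± 0.64 in LSK cells, and Id1 rose by 3.36 ± 0.28 and 3.00 ± 0.54. The E protein gene Tcf3 fell in LSK cells (-0.52 ± 0.15).

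Of the 18 conventional surface and effector genes, 15 were tested in GMPs at 2 weeks, where 12 rose and 1 fell. In LSK cells 16 were tested and 13 rose. Tlr3, an endosomal sensor of double-stranded RNA, rose by 8.01 ± 0.59 in GMPs and 6.53 ± 0.85 in LSK cells. Ifi205 rose by 7.44 ± 0.47 in GMPs, and the cathepsin inhibitor Cst3 by 4.38 ± 0.36.

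The 12 further plasmacytoid genes were tested where their counts allowed. In LSK cells at 2 weeks 9 were tested and 5 rose, among them Bst2 (1.75 ± 0.20) and Ly6d (4.72 ± 0.51, from 19.8 to 20.4 CPM in WT to 384 to 448 CPM). In GMPs 6 were tested, and 3 rose and 1 fell: Rnase6 (4.18 ± 0.40), Ptprs (1.82 ± 0.22) and Irf7 (3.72 ± 0.78), which stands in both lists, rose. At 4 weeks 6 of 16 transcription factors rose in GMPs, and 2 rose and 2 fell in LSK cells. Over all genes the share called higher was lower at 4 than at 2 weeks too, at 7.18% against 16.2% in GMPs and 4.54% against 11.1% in LSK cells.

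Flt3 itself, whose counts do not separate the mutant from the normal allele, rose by 2.53 ± 0.21 in GMPs at 2 weeks, from 16.8 to 28.2 CPM in WT to 106 to 139 CPM. Among 9 growth factor receptors and signal transducers of dendritic development, 8 were tested and 3 rose and 1 fell there. In LSK cells at 2 weeks 3 rose and 4 fell, Kit among them (-2.31 ± 0.22), the receptor that the LSK sort uses.

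Siglech and Tcf4 were the members called between LSK and GMP cells at 2 weeks. Siglech was higher in Flt3 LSK cells by 5.91 ± 0.84 (adjusted p = 7.2e-07) and Tcf4 by 1.23 ± 0.25 (adjusted p = 0.000438), and no library overlapped for either. No conventional member was called, and their differences lay between -0.77 ± 0.61 (Zbtb46) and 0.06 ± 0.33 (Cd209a). Cd209a nevertheless did not overlap, at 65.8 to 70.2 CPM in LSK and 54.5 to 62.1 CPM in GMP cells. Of the plasmacytoid members without a test, Spib did not overlap and Ccr9 did. The 2 members called compare with 3.57% of genes called higher. Of the 12 further plasmacytoid genes, 9 were tested, and 5 were higher in LSK cells and 1 lower. Ly6d (6.28 ± 0.56) and Cox6a2 (4.74 ± 0.60) were higher, and Ptprs was lower by 1.99 on the log2 scale (-1.99 ± 0.23).

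In WT, Tcf4 was the member called between LSK and GMP cells (1.47 ± 0.25, adjusted p = 1.6e-05), where 16.1% of genes were higher in LSK cells, out of 8 members tested. LSK and GMP libraries whose codes name the same animal can be fitted with the animal as a block, and 3 members were then called: Tcf4, Cadm1 (3.05 ± 0.59, adjusted p = 3.7e-05) and Zbtb46 (adjusted p = 0.0383). Zbtb46 was at 2.81, 2.47 and 3.84 CPM in WT LSK cells and had no count in WT GMPs, so that LSK cells were at least 4.81-fold higher. Fitted without the block, neither was called (adjusted p = 0.0983 for Zbtb46 and 0.0642 for Cadm1). Zbtb46 did not overlap between the cell types, while Cadm1 did, at 3.51 to 31.5 against 0 to 4.02 CPM.

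Over 4 to 8 weeks, Xcr1 was higher in Flt3 LSK than in Flt3 GMP cells (1.32 ± 0.38, adjusted p = 0.0213), and it was the only member called of 8 tested, where 7.91% of genes were. The libraries overlapped, at 16.8 to 157 CPM in LSK and 2.22 to 39.0 CPM in GMP cells. Without Flt3 GMP replicate 1 at 6 weeks Xcr1 was not called (1.22, adjusted p = 0.0503), and without GMP replicate 3 at 8 weeks Siglech was called too (3.37, adjusted p = 0.0193). With the animal as a block, Cadm1 (1.04 ± 0.26, adjusted p = 0.00205) and Siglech (2.08 ± 0.64, adjusted p = 0.0156) joined Xcr1. Tcf4 did not differ past the threshold between the cell types at these times (0.17 ± 0.14, adjusted p = 0.491).

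At 4 weeks, where WT and Flt3 were both sampled, the Flt3 effect on Tcf4 differed between the cell types. The difference from WT was 1.19 lower in LSK than in GMP cells on the log2 scale (-1.19 ± 0.36, adjusted p = 0.0445), with Tcf4 at 88.2, 83.3 and 97.7 CPM in Flt3 LSK cells and at 64.6, 71.0 and 71.5 CPM in Flt3 GMPs. All 3 Flt3 GMP libraries were above WT GMPs, while Flt3 and WT LSK libraries overlapped. No other member was called in this test, where 2.06% of genes were lower. With the animal as a block Cadm1 was called as well (-3.07 ± 0.79, adjusted p = 0.0101).

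The Tcf4 interaction is close to the threshold. DESeq2 with the near-empty library in its fit gave -1.34 (adjusted p = 0.130). Leaving out any of 10 of the 12 libraries of these groups gave -1.04 to -1.25 with adjusted p from 0.0601 to 0.112. The exceptions were WT GMP replicate 3 and WT LSK replicate 2.

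**Figure D3:**
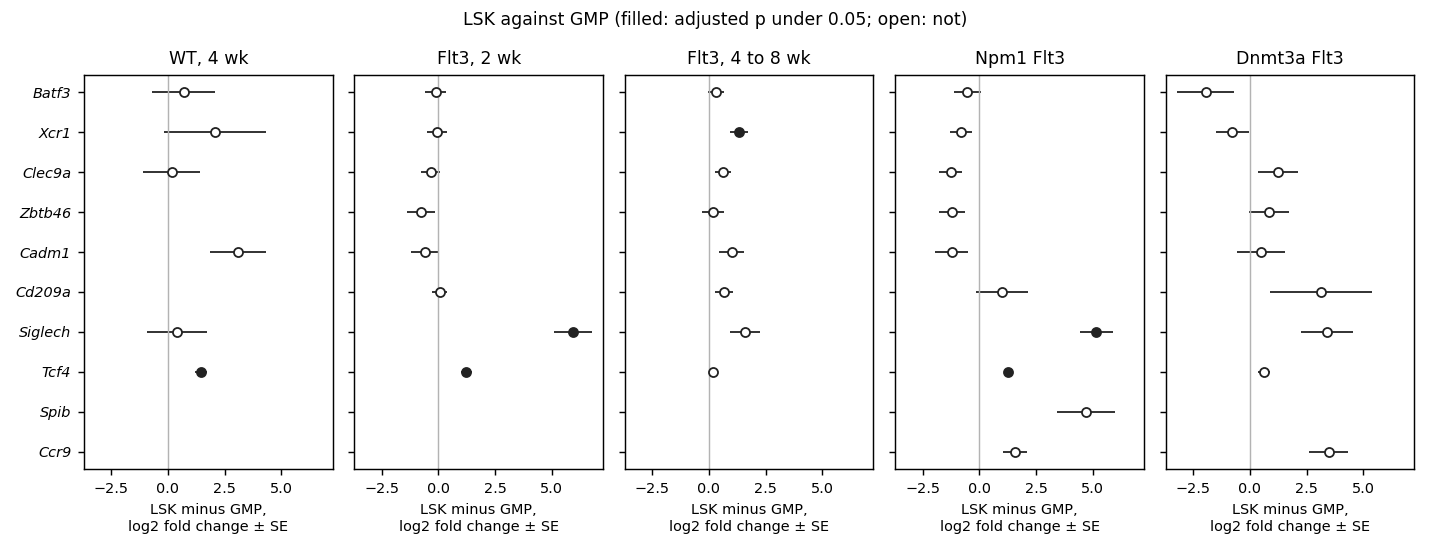
Each panel gives the LSK minus GMP log2 fold change ± SE of each tested member in 1 genotype or time window, filled where the adjusted p was under 0.05; members not tested, or with no count in 1 cell type, may be missing. Siglech is filled at 5.91 in Flt3 cells at 2 weeks and at 5.16 in Npm1 Flt3 cells, while the conventional members lie near 0 or are open except Xcr1 over 4 to 8 weeks.

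The second table allows mice with mutant Flt3 and either of 2 further mutations to be compared. The sorted libraries of the 2 genotypes have different code series, so second mutation and code series cannot be told apart. Apart from Tcf4, Npm1 Flt3 LSK cells held far more of the members' transcripts than Dnmt3a Flt3 LSK cells. In LSK cells Batf3 stood at 43.8, 13.8, 57.1 and 13.5 CPM in the 4 Npm1 Flt3 libraries, and at 0.0623 and 0.0305 CPM in the 2 Dnmt3a Flt3 libraries tested. Xcr1 stood at 117, 89.6, 153 and 36.8 CPM against 0.405 and 1.02 CPM. Siglech stood at 133, 107, 81.8 and 70.2 CPM against 0.981 and 0.412 CPM. None of these groups overlapped, and the differences were 9.43 ± 1.05, 7.14 ± 0.75 and 7.14 ± 0.50.

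The other conventional members followed in LSK cells. Clec9a differed by 6.81 ± 0.86, Cadm1 by 5.19 ± 0.79, Cd209a by 6.64 ± 1.19 and Zbtb46 by 4.96 ± 1.06. Npm1 Flt3 LSK replicate 4 was the lowest of its group for each of the 6 conventional members, for example at 2.74 CPM of Zbtb46 where the other 3 libraries had 19.3 to 41.6 CPM. Spib stood at 33.6, 20.3, 40.1 and 4.78 CPM against 0 and 1.31 CPM (5.25 ± 1.46, adjusted p = 0.0452), and Ccr9 at 13.3, 14.8, 16.6 and 13.5 CPM against 2.01 and 1.02 CPM (3.31 ± 0.55).

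In all, 9 of 10 members were higher in Npm1 Flt3 LSK cells, where 7.80% of 19470 genes were. The median over the 10 was 5.94, against -0.00 over all genes. A member could pass the filter through the genotype in which it is high. This count and median, and the GMP count below, therefore describe the members only. Tcf4 was not called (0.58 ± 0.24, adjusted p = 0.148), at 151 to 228 against 131 and 144 CPM. The genotypes did not overlap for any of the 10, Tcf4 included. As in the first table, no share over all genes stands beside such non-overlap, so it describes the libraries only. With 1 Dnmt3a Flt3 library left, assumed to vary like the other groups, Zbtb46, Cd209a and Spib were lost without replicate 2 (adjusted p from 0.0764 to 0.118), and Zbtb46, Cd209a and Ccr9 without replicate 3 (0.0558, 0.05004 and 0.0670). Spib was also lost without Npm1 Flt3 replicate 1, 2 or 3 (0.0808 to 0.103), and Zbtb46 without replicate 1 (0.0562). The Spib call was lost as well with median-ratio size factors (0.0527), the library total alone (0.0581) and no low-count filter (0.259).

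In GMPs, 6 of the 10 members were called higher in Npm1 Flt3 cells, where 12.5% of 17200 genes were. Clec9a stood at 212, 83.4, 113 and 94.2 CPM in Npm1 Flt3 GMPs and at 0.336 and 0.0637 CPM in Dnmt3a Flt3 GMPs (9.35 ± 0.85, adjusted p = 0.000728). Batf3 (8.05 ± 1.09), Xcr1 (7.24 ± 0.82), Zbtb46 (7.08 ± 0.57), Cadm1 (6.96 ± 1.35) and Ccr9 (5.33 ± 1.12) were called too. These 6 did not overlap between the genotypes, nor did Siglech and Spib.

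Cd209a (8.82 ± 2.87, adjusted p = 0.0666), Siglech (5.55 ± 1.86, adjusted p = 0.0734) and Spib (adjusted p = 0.0679) missed the threshold in GMPs. Spib had no count in any of the 3 libraries titled Dnmt3a Flt3 GMP, the one left out of tests included. Against their floor of 0.0114 CPM, the level pooled over the Npm1 Flt3 GMP libraries was at least 61.9-fold higher. Single Npm1 Flt3 GMP libraries held 0.00781 to 1.48 CPM, so the lowest was itself below that floor. Npm1 Flt3 GMP replicate 3 had no Cd209a count and the lowest Spib value, and without it both were called (9.21, adjusted p = 0.0055, and adjusted p = 0.0213). The Ccr9 call was lost without Dnmt3a Flt3 GMP replicate 1 (4.55, adjusted p = 0.0812), and the Cadm1 call with no low-count filter (6.96, adjusted p = 0.102). Siglech (adjusted p = 0.0216) and Spib (adjusted p = 0.0326) were called with no filter, and Cd209a, Siglech and Spib with DESeq2 (adjusted p = 0.000216, 0.000161 and 0.000581). Tcf4 was at 61.3 to 101 CPM against 65.8 and 75.6 CPM (0.03 ± 0.25).

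With the 2 libraries of conflicting labels put back, Cd209a, Siglech and Spib were also called in GMPs (adjusted p = 0.0382, 0.0169 and 0.0259). Neither library held more than 0.571 CPM of a conventional member.

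Of the 17 further dendritic transcription factors, 14 were higher in Npm1 Flt3 LSK cells and 9 in GMPs, and none was lower in either. Over all genes, 1518 of 19470 were higher and 733 lower in LSK cells, and 2157 of 17200 were higher and 1414 lower in GMPs. Irf8 was higher by 4.64 ± 0.68 and 3.12 ± 0.23, and Id2 by 3.83 ± 0.41 and 5.0003 ± 0.53. Of the 18 conventional surface and effector genes, 12 and 14 were higher, Cst3 by 5.29 ± 0.58 and 5.11 ± 0.48. Of the 12 further plasmacytoid genes, 10 were higher in LSK cells, among them Ly6d (5.95 ± 0.39) and Cox6a2 (7.16 ± 0.67). In GMPs 4 of 11 were higher and 1 lower.

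Within Npm1 Flt3 mice, Siglech and Tcf4 were again the members called between LSK and GMP cells. Siglech, at 70.2 to 133 CPM in LSK cells, was at 3.43, 0.204, 3.84 and 1.94 CPM in GMPs (5.16 ± 0.72, adjusted p = 0.000769). Tcf4 was higher in LSK cells by 1.25 ± 0.18 (adjusted p = 0.000938). These were 2 calls among 10 members, where 2.35% of genes were higher in LSK cells. Spib (4.70 ± 1.29, adjusted p = 0.0582) and Ccr9 (1.56 ± 0.54, adjusted p = 0.129) did not overlap between the cell types but missed the threshold.

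With the animal as a block, 5 members were called in Npm1 Flt3 mice. Spib was higher in LSK cells (3.59 ± 0.62, adjusted p = 0.00931), and Xcr1 (-1.42 ± 0.29, adjusted p = 0.0194) and Clec9a (-1.77 ± 0.37, adjusted p = 0.0235) were lower. Of the 12 further plasmacytoid genes 6 were higher in LSK cells, Ly6d by 7.46 ± 0.48. The 8 B lineage genes summed to 158.1 to 730.2 CPM in these LSK cells and to 64.8 to 70.3 CPM in the GMPs, and their part in the Spib difference was not tested.

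In Dnmt3a Flt3 mice no member was called between LSK and GMP cells by edgeR, where 1.87% of 21227 genes were called and 2080 had an unadjusted p under 0.05. Ccr9 came nearest (3.47 ± 0.85, adjusted p = 0.0535), at 2.01 and 1.02 CPM in LSK and 0.0259 and 0.182 CPM in GMP cells. DESeq2 called Siglech, Spib and Ccr9 (adjusted p = 0.0223, 0.0355 and 8.2e-05). The fit with the animal as a block called Spib (adjusted p = 0.0490), but only the animal of replicate 3 has both cell types in that fit. With the 2 libraries of conflicting labels put back, Tcf4 (0.79 ± 0.20, adjusted p = 0.0327) and Ccr9 (3.97 ± 0.88, adjusted p = 0.0169) were called higher in LSK cells. In the 3 libraries titled GMP Spib had no count. The level pooled over the 3 titled LSK, all from 1 library, was at least 31.0-fold above their floor of 0.0114 CPM. Both of these groups include the library with conflicting labels.

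**Figure D4:**
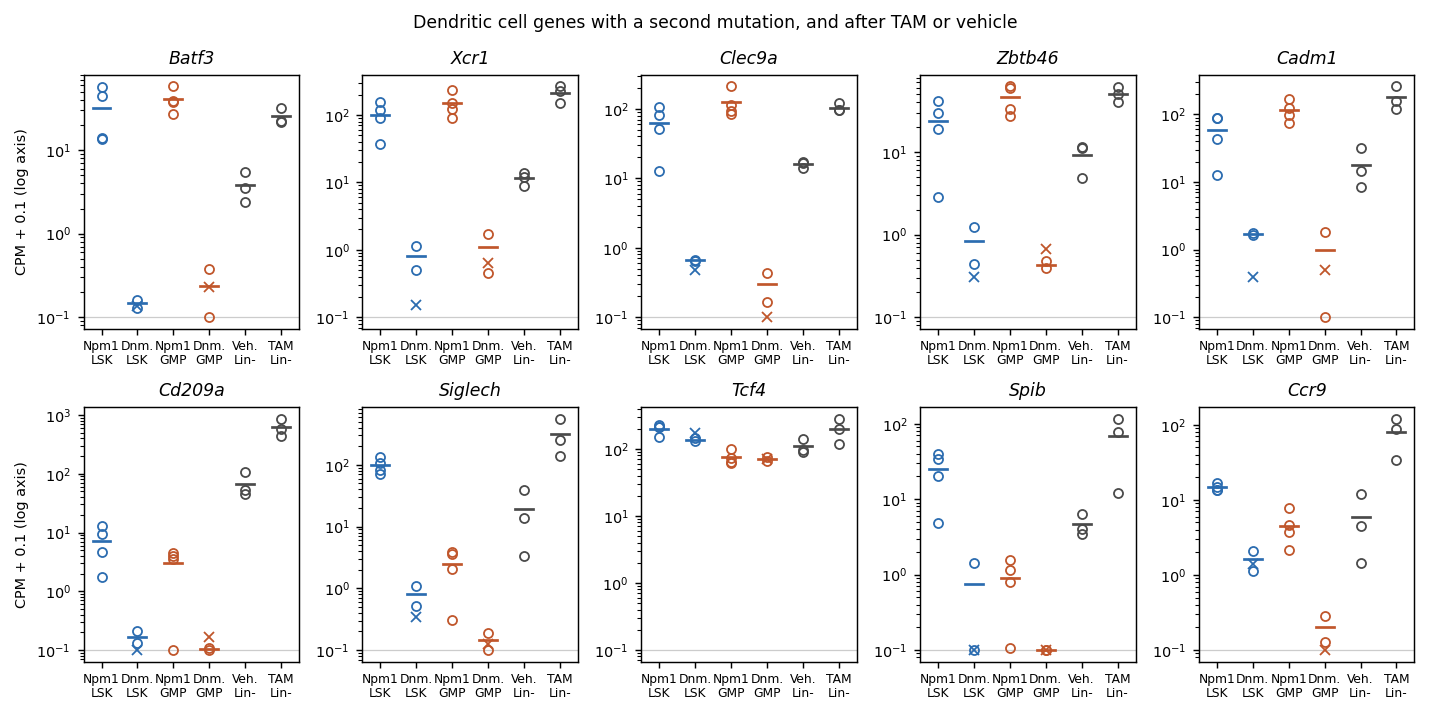
Each panel plots the CPM (log axis, 0.1 added) of 1 member in Npm1 Flt3 and Dnmt3a Flt3 (Dnm.) LSK and GMP libraries and in Lin- libraries after vehicle (Veh.) or TAM, with bars for group means and crosses for the 2 libraries left out of tests and means. Xcr1 is at 36.8 CPM or more in every Npm1 Flt3 LSK and GMP library and at 1.64 CPM or less in every Dnmt3a Flt3 library, and all members except Tcf4 are separate between TAM and vehicle.

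TAM, which per the labels removes the mutant Flt3 allele, was compared with vehicle in Lin- Npm1 Flt3 progenitors after 7 days. The counts do not measure that removal. No group was given TAM without the removable allele, so the drug and the loss of the allele cannot be told apart. Xcr1 stood at 229, 148 and 268 CPM after TAM and at 13.6, 8.81 and 11.9 CPM after vehicle (3.04 ± 0.38, adjusted p = 6.8e-07). Cd209a stood at 569.8, 438 and 859 CPM against 44.7, 53.2 and 106 CPM (1.97 ± 0.40). Siglech stood at 557, 139.7 and 255 CPM against 39.8, 3.26 and 13.8 CPM (3.06 ± 0.66). In each case the lowest TAM library was above the highest vehicle library.

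The same held for 6 further members. Batf3 was at 22.1, 32.3 and 21.5 CPM against 5.39, 2.31 and 3.45 CPM (1.69 ± 0.46), and Cadm1 at 119, 262 and 160 CPM against 31.2, 8.23 and 14.2 CPM (2.34 ± 0.41). Clec9a rose by 1.53 ± 0.36, Zbtb46 by 1.36 ± 0.38, Spib by 2.69 ± 0.52 and Ccr9 by 2.77 ± 0.50. Ccr9 was at 119.8, 33.7 and 88.2 CPM against 11.8, 1.36 and 4.36 CPM. Tcf4 was not called (-0.36 ± 0.36, adjusted p = 0.415), at 280.1, 119.6 and 196 CPM against 143, 97.0 and 89.0 CPM.

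So 9 of 10 members were called higher after TAM, where 10.1% of 25269 genes were called higher and 21.3% lower. The size of these changes depends on the scaling. TMM factors were 1.32 to 1.67 in TAM and 0.476 to 0.865 in vehicle libraries, and under them the median over all genes was already 0.56, while that of the members was 2.16. With the library total alone, the median over all genes was 1.64 and 81.5% of called genes were higher, against 32.1% with TMM.

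With the library total alone, all 10 members were called, Xcr1 by 4.23 ± 0.27 and Tcf4 by 0.86 ± 0.29 (adjusted p = 0.0367), so that the sign of Tcf4 turned. With median-ratio size factors 7 members were called, without Clec9a (1.17, adjusted p = 0.0830) and Zbtb46 (1.06, adjusted p = 0.0954). DESeq2 called 8, without Clec9a (1.13, adjusted p = 0.0582). Under each of these scalings the 9 members other than Tcf4 were higher after TAM.

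Among single libraries, Siglech was not called without any of the TAM replicates (2.48, 3.34 and 3.20, adjusted p = 0.106, 0.0608 and 0.0874). Batf3 was not called without TAM replicate 2 (1.39, adjusted p = 0.0742), nor Spib without vehicle replicate 2 (2.71, adjusted p = 0.0532).

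**Figure D5:**
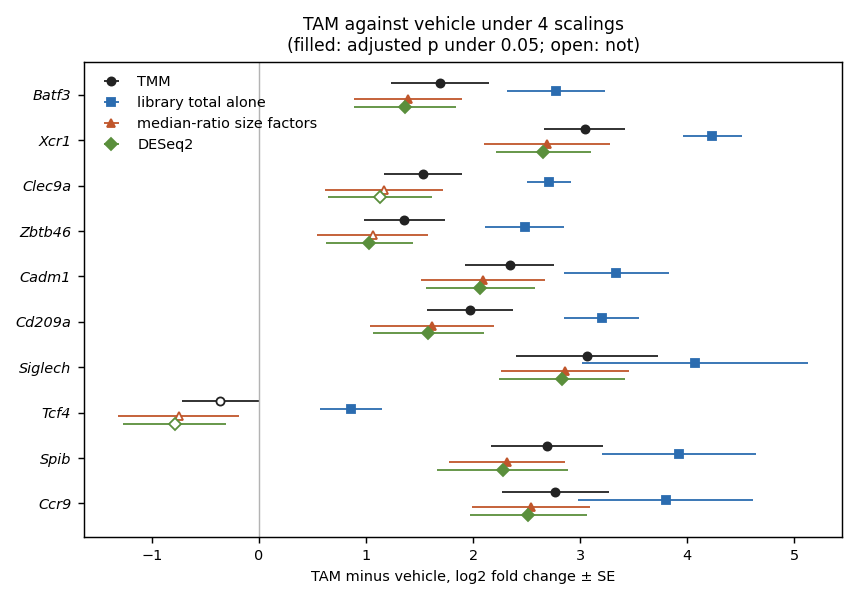
The log2 fold change ± SE of each member between TAM and vehicle (positive: higher after TAM) is drawn under 4 scalings, filled where the adjusted p was under 0.05. Of the 10 members, Tcf4 alone changes sign, from -0.36 with TMM to 0.86 with the library total alone.

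Genes of many cell types differed between TAM and vehicle in the same libraries. The 7 T and NK genes summed to 364 to 547 CPM after TAM and to 23.2 to 29.5 CPM after vehicle, 8 neutrophil genes to 1852 to 3006 against 202 to 239 CPM, and 5 erythroid genes to 502 to 689 against 1.09 to 7.28 CPM. Stromal and endothelial genes summed to 220 to 450 against 29.7 to 63.8 CPM, monocyte and macrophage genes to 2724 to 3883 against 1397 to 1747 CPM, and GMP genes to 637 to 974 against 5205 to 6335 CPM. The part of these cells in the member values was not tested.

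Of the 17 further transcription factors 4 rose and 4 fell after TAM, with a median of -0.17, beside 10.1% and 21.3% of all genes called higher and lower. Irf7, the interferon-response factor that plasmacytoid cells hold at high levels, rose by 4.99 ± 0.44, from 8.78 to 11.5 CPM after vehicle to 392 to 936 CPM, and Id2 rose by 1.62 ± 0.40. Of the 18 conventional surface and effector genes 7 rose and 2 fell (Tlr3 3.22 ± 0.39), and of the 12 plasmacytoid genes 4 rose and none fell. With TMM factors, Flt3 fell by 1.68 on the log2 scale (-1.68 ± 0.39, adjusted p = 0.00126). In CPM of the library total the groups overlapped, at 83.3 to 183 after TAM against 160 to 209 CPM after vehicle. Its size under the other scalings is not given, so the limit stated for the members holds here too.

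Across the 10 groups of the first table, the group means of the 6 conventional members largely rose and fell together. Pearson r was 0.846 to 0.973 over all pairs on the log2 scale, which does not compare their levels. Siglech and Spib were alike (0.931), and Ccr9 was closest to Cadm1 (0.923). Tcf4 correlated with no other member above 0.403. These points share libraries and depth, and r is given as a description only.

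Over all genes, the group means most like those of Batf3 were of Ifi205 (0.992), Naaa and Plbd1. Those most like Xcr1 were of Tlr11 (0.988), Snx22 and Sept3, and those most like Clec9a of Tnni2, Tlr11 and Tlr3. Zbtb46 was most like March1 (0.992), Ckb and Bcl2a1a, Cadm1 most like Treml4 (0.992), Dlgap4 and Slamf8, and Cd209a most like Adam19 (0.966), Cyp27a1 and H2-DMb1. Tcf4 was most like Foxp1 (0.983), Pde7a and Gstt3, and Ccr9 most like Pqlc2 (0.981), Cd209d and Cxcl9.

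The genes most like Siglech were Apod (0.966), Ccr10 and Iglv3, and those most like Spib were Iglv3 (0.947), Ighg1 and Iglv2, immunoglobulin genes all 3. Their rank correlations were low, 0.165 for Siglech with Iglv3 and 0.379 for Spib with Iglv3.

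On GRCm38 the members lie on 7 chromosomes, as protein-coding genes. Batf3 lies at chr1:191097847-191108945, Zbtb46 at chr2:181387762-181459426, Clec9a at chr6:129408862-129424763, Cd209a at chr8:3743397-3748984 and Cadm1 at chr9:47530173-47857637. Siglech (chr7:55768178-55778925) and Spib (chr7:44525993-44532071) share a chromosome. Xcr1 (chr9:123852315-123862029) and Ccr9 (chr9:123678439-123784330) are 68.0 kb apart, with the coding genes Fyco1 and Cxcr6 between them.

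The Ccr9 annotation overlaps Lztfl1 and Slc6a20a on the other strand and shares 20.1% of its 50-base stretches with other genes, 17.8% with the overlapping AC165425.1, so its counts are uncertain where strand was not used. Clec9a shares 4.02% with Clec1b, which it overlaps on the same strand. Cd209a shares none with other genes. Its paralog Cd209d, counted separately, also rose in GMPs at 2 weeks (at 9.09 to 33.6 CPM with no count in WT) and after TAM (3.38 ± 0.58).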

How the data were processed

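RNA-seq gene counts were analysed as deposited: the authors' 2 tables hold raw, whole-number counts for 33924 genes in 30 and 20 libraries. Reads were aligned with STAR and counted with featureCounts on mm10, per the submitters' processing notes; their versions, the annotation and the use of strand are not given in the sources used here. Per the labels' protocols, cells were sorted into Trizol, and both a paired-end and a single-end 3′ kit were used without saying for which sample, so levels are not compared between genes and the tables were fitted separately. The members and gene lists were chosen with earlier results of these data known.

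Level is CPM, counts per 1e+06 counts of the library total. Tests used edgeR 4.0.16 (R 4.3.3): its expression filter, TMM factors, robust quasi-likelihood fits and Benjamini-Hochberg adjustment at 0.05, with DESeq2 1.42.0 as an alternative. The script was tested on simulated data with known fold changes. A fold against a group with no counts is a lower bound, set at 3 counts over the group. Named were all 10 members, up to 3 genes per list with the smallest p, the 3 genes most like each member, and paralogs. Of the listed symbols, 6 were looked up under older names (Sfpi1 for Spi1, for example) and Hbb-bs was not found.

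Replicates are separate samples per the labels; p-values measure the spread between these samples, which may be partly technical. All 54 replicate pairs differed by more than sampling noise (lowest chi-square per degree of freedom 2.35). LSK and GMP libraries whose codes name the same animal are paired by source. Their deviations from the group means correlated at -0.06 to 0.21 in 14 pairs of the first table and -0.02 to 0.32 in 4 pairs of the second. TAM and vehicle libraries of the same title number correlated at 0.10 to 0.30 in 3 pairs, but their codes name no shared animal. Title numbers are numbers only. Alternatives were other scalings, filters, DESeq2, blocks, smaller fits and leaving out each library. The fit with the library total alone was chosen after seeing the data. Figures were drawn with matplotlib 3.10.9.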

Additional observations from a re-analysis of the deposited data

Results flagged for a closer look

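The Flt3 effect on Tcf4 at 4 weeks differed between LSK and GMP cells by an interaction test, at -1.19 on the log2 scale (LSK minus GMP, adjusted p = 0.0445, edgeR). All 3 Flt3 GMP libraries were above the 3 WT GMP libraries, while the LSK libraries overlapped. DESeq2 with the near-empty library in its fit did not call it (-1.34, adjusted p = 0.130).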

How the results depend on the processing

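Of 2293 recomputed member differences, 2109 kept their direction and side of the threshold, 83 were no longer called, 56 became called and 45 changed sign. Of 294 counts of members called, 255 stayed within 1.5 times the original. In each case below the cause was not tested, except that smaller fits hold fewer samples.

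Between WT LSK and GMP cells (1 member called), DESeq2 called 3 with or without the near-empty library, median-ratio size factors 2, the library total alone 3, no filter 2, the animal block 3, and leaving out single libraries 1 to 2. With only the compared groups in the fit, 2, 3 and 1 members were called in GMPs at 4, 6 and 8 weeks, in place of 6, 6 and 5. Without single libraries the GMP counts were 6 at 2 weeks, 4 to 5, 4 to 6 and 2 to 6 later, and the LSK counts 6 to 7, 3 to 5, 2 to 4 and 4 to 5. In the interaction at 4 weeks (1 called), DESeq2 with the near-empty library called 0, no filter 2, the animal block 2 and single omissions 0 to 1. For LSK against GMP over 4 to 8 weeks (1 called), the block gave 3, the smaller fit 0 and single omissions 0 to 2. In Npm1 Flt3 mice (2 called) DESeq2 gave 4 and the block 5. In Dnmt3a Flt3 mice (0 called) DESeq2 gave 3, the library total 1, no filter 1, a 5 CPM filter 1, and the conflicting libraries put back 2. The block gave 1 there, with only the animal of replicate 3 paired. Single omissions gave 6 to 9 (LSK) and 5 to 8 (GMP) for Npm1 Flt3 against Dnmt3a Flt3, and 7 to 9 for TAM.

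Title numbers as a replicate block are not supported by the sample codes, TAM and vehicle included. With that block Siglech was called in LSK cells at 6 weeks (2.76, adjusted p = 0.0393). The sign of Tcf4 turned in GMPs of Npm1 Flt3 against Dnmt3a Flt3 (-0.10). No other member call changed with the block, TAM included. Under the animal block, signs turned for Siglech in WT (-0.0866) and Cd209a in Npm1 Flt3 (-0.00504). In Dnmt3a Flt3 mice, where only the animal of replicate 3 is paired, signs turned for Xcr1 (1.21) and Cadm1 (-0.51). With the library total alone they turned for Tcf4 in LSK cells at 2 weeks against WT (-0.0688) and against later (-0.0318), for Batf3 (0.0102) and Xcr1 (0.0489) between LSK and GMP cells at 2 weeks, and for Tcf4 after TAM (0.86; 0.19 with a 5 CPM filter). Tcf4 in GMPs of Npm1 Flt3 against Dnmt3a Flt3 was -0.0125 with DESeq2 and -0.0140 with median-ratio size factors. None of these was called except Tcf4 after TAM with the library total.

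Over all single omissions, these uncalled differences took both signs. In WT LSK against GMP cells they were Clec9a (-2.82 to 3.02), Siglech (-0.91 to 0.96) and Batf3 (-0.28 to 1.40). In LSK cells against WT they were Cadm1 at 4 weeks (-1.56 to 1.30) and 6 weeks (-0.53 to 1.85) and Tcf4 at 6 weeks (-0.37 to 0.0687) and 8 weeks (-0.12 to 0.54). In the interaction they were Clec9a (-2.44 to 3.40) and Xcr1 (-2.77 to 0.0033). Between LSK and GMP cells they were Zbtb46 over 4 to 8 weeks (-0.15 to 0.70) and, at 2 weeks, Batf3 (-0.38 to 0.19) and Xcr1 (-0.23 to 0.19). In Npm1 Flt3 against Dnmt3a Flt3 GMPs it was Tcf4 (-0.18 to 0.15). In Dnmt3a Flt3 LSK against GMP cells they were Xcr1 (-1.56 to 0.82), Cadm1 (-0.35 to 10.06), Batf3 (-2.75 to 5.003) and Zbtb46 (-0.25 to 1.46).

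Scaling also moved the split of calls. Of the genes called, the percentage higher was 54.4% between WT LSK and GMP cells and 83.2% with the library total alone, 59.7% and 42.7% in GMPs at 2 weeks (90.9% with DESeq2), and 58.1% and 21.8% in LSK cells at 2 weeks. Low counts limit the members in the first table: Spib and Ccr9 were not tested there, nor Siglech in GMPs.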
